A study of Mus musculus with 20 samples.

Results

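The expression of 9 innate defence genes of the ocular surface was followed in the mouse corneal epithelium across 4 ages: the chitinase *Chit1*, the C-type lectin ligands *Clec2g* and *Clec2d*, the protease inhibitor *Slpi*, the metal-withholding genes *Lcn2*, *S100a8* and *S100a9*, the defensin *Defb1* and the peptidoglycan-binding gene *Pglyrp1*. They are 9 of the 24552 genes in the table and were taken by symbol. All 9 passed the filter for testing, a mean of at least 10 normalized counts over the libraries. For *Lcn2* and *S100a8*, with means of 19.2 and 20.7, this rested on 18-month replicate 5, at 195.3 and 250.5. The filter was not set again without that library. *Chit1* and *Clec2g* were picked because they were lower than in young mice at all 3 older ages, so their values against young are a description and carry no test.

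The epithelium was removed by debridement from unwounded female C57BL/6J mice that carried no transgene or treatment. There were 5 mice at 2–3 months (the young group), 5 at 12–13 months, 5 at 18–19 months and 5 at 24–25 months, and each library held both corneas of 1 animal. RNA was copied from the 3′ end and sequenced, and each library had between 6699383 and 10762360 reads on genes (median 8731333). Some mice were purchased, some were aged in house and some came from a national colony, and which animal came from where is not given in the sources used here.

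Because corneal epithelium meets microbes at every blink, it makes secreted proteins that act before any immune cell arrives. Chitinases cut the chitin of fungal walls, defensins damage microbial membranes, and peptidoglycan recognition proteins bind the bacterial cell wall. Lipocalin-2 captures the siderophores with which bacteria gather iron, and the S100A8–S100A9 pair, known as calprotectin, withholds zinc and manganese. *S100a8* and *S100a9* are also among the most abundant transcripts of neutrophils, and *Lcn2* is stored in neutrophil granules, so in bulk tissue their reads can come from either source. Clec2 proteins sit on the cell surface and are bound by Klrb1 receptors of natural killer cells. In these bulk samples, fewer cells of a type and less RNA per cell cannot be told apart.

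The 150 bases before the annotated start of 5 of the genes are shown. *Chit1* and *Clec2g* were the pair picked for lower levels at the older ages. *S100a8*, *S100a9* and *Lcn2* shared 1 library in which all were high. The sequences are from RefSeq, build GRCm38.p6, whose promoter table held 8 of the 9 members (not *Defb1*). Capitals mark matches on either strand to TATAAA (the TATA box), TTNNGNAAT (a C/EBP motif) or the NF-kappaB consensus.
*Chit1*, chr1:134111092-134111241, plus strand: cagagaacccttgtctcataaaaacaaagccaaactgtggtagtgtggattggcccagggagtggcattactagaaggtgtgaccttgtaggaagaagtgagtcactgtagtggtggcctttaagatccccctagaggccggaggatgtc
*Clec2g*, chr6:128934231-128934380, plus strand: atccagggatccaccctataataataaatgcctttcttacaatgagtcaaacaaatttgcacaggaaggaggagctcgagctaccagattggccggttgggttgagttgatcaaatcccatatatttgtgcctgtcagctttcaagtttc
*Lcn2*, chr2:32387740-32387889, minus strand: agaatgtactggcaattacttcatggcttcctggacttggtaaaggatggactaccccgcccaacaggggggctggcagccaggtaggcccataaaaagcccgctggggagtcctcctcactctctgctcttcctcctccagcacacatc
*S100a8*, chr3:90668921-90669070, plus strand: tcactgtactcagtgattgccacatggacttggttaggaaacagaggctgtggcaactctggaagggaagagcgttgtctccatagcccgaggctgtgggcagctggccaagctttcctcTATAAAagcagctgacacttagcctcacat
*S100a9*, chr3:90695722-90695871, minus strand: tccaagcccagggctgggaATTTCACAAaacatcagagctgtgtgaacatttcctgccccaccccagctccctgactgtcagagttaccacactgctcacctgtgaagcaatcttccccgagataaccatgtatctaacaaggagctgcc

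In these windows *S100a8* held a TATA match that began 30 bases before the start, and *S100a9* held a C/EBP match at 131 bases. *Chit1*, *Clec2g* and *Lcn2* held none of the 3 motifs in the 250 bases before their starts. Of the members not printed, *Slpi* held a pair of C/EBP matches, at 241 and 65 bases, *Pglyrp1* held an NF-kappaB match at 93 bases, and *Clec2d* held none. Over the same 250 bases, TATA letters were found in 12.4% of the 32851 promoters of the table, C/EBP letters in 10.2% and the NF-kappaB consensus in 7.25%. A match or its lack describes only these letters in this window.

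The genes lie on 6 chromosomes in the RefSeq annotation of GRCm38.p6. *Clec2g* (chr6:128934381-128984707) and *Clec2d* (chr6:129180615-129186535) are both on the plus strand of chromosome 6. *S100a8* (chr3:90669071-90670034) and *S100a9* (chr3:90692630-90695721) are neighbours on opposite strands. *Chit1* lies at chr1:134111242-134151541, *Lcn2* at chr2:32384637-32387739, *Slpi* at chr2:164354070-164356507, *Pglyrp1* at chr7:18884690-18890438 and *Defb1* at chr8:21776555-21795185. No 75-base run, the length of 1 read, was shared between a transcript of the Clec2 or S100 members and a transcript of another gene, so reads of the related members could be told apart. *Pglyrp1* shared 24 of its 1836 such runs (1.31%) with other genes, and the remaining members shared 0. Only *Slpi* has an exon over that of another annotated gene, the microRNA gene *Mir7678* on the same strand.

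Values are given as normalized counts, that is, reads divided by a size factor of the library, and differences as log2 fold changes of the normalized count plus 1. *Chit1* encodes chitotriosidase. The 5 young libraries held 700.5, 1147, 682, 803 and 829 normalized counts of *Chit1*. At 12 months the libraries held 506, 558, 385, 431 and 645, at 18 months 492, 411, 357, 481 and 422, and at 24 months 356, 393, 366, 345 and 296. All 15 older libraries lay below the lowest young one, with no overlap at any age. Of all 11288 genes tested, 1.06% were lower without overlap at 12 months, 1.01% at 18 months and 1.55% at 24 months, and since the gene was chosen on these contrasts nothing is read from this.

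The mean of *Chit1* was 832 ± 187 (SD, n = 5) in young epithelium, 505 ± 103 at 12 months, 432 ± 55 at 18 months and 351 ± 35.4 at 24 months. These means were 39.4%, 48.0% and 57.8% lower than in the young group, or −0.72, −0.93 and −1.22 on the log2 scale (SE 0.155 each). The SD became smaller at each older age, and the 24-month libraries were the most alike. The choice of the gene used the older libraries against young, but not the contrasts between older ages. For *Chit1* and *Clec2g* these contrasts still take values of libraries that the choice used, so their tests are not wholly free of it. In the contrasts between older ages, *Chit1* was 0.50 lower on the log2 scale at 24 than at 12 months. That difference did not pass the test over all genes (limma, adjusted p = 0.14; two-sided exact permutation test of the 5 against 5 libraries, p = 0.0159). The steps from 12 to 18 months (−0.21, limma adjusted p = 0.755) and from 18 to 24 months (−0.30, limma adjusted p = 0.919) did not pass either.

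*Clec2g* encodes a ligand of the Klrb1 receptor family. Its young libraries held 385, 499, 388, 450.3 and 499 normalized counts. The 12-month libraries held 192, 331, 201, 211 and 232, the 18-month libraries 162, 164, 216, 111 and 337, and the 24-month libraries 131, 181, 167, 156 and 201. Again no older library reached the lowest young one, although 12-month replicate 2 and 18-month replicate 5 stood above the rest of their ages. The mean went from 444 ± 56.4 (SD, n = 5) to 234 ± 56.6, 198 ± 86.2 and 167 ± 26.5, which is 47.4%, 55.4% and 62.4% lower than young (log2 −0.94, −1.25 and −1.41, SE 0.219 each). Differences among the older ages did not pass the test over all genes: −0.31 from 12 to 18 months (limma, adjusted p = 0.749), −0.47 from 12 to 24 months (adjusted p = 0.322; exact permutation p = 0.0159) and −0.16 from 18 to 24 months (adjusted p = 0.971). Without 18-month replicate 5 the last difference was 0.06. The 3 comparisons with young share the same 5 young libraries, so the lower levels at the 3 ages are not 3 separate measurements.

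**Figure D1:**
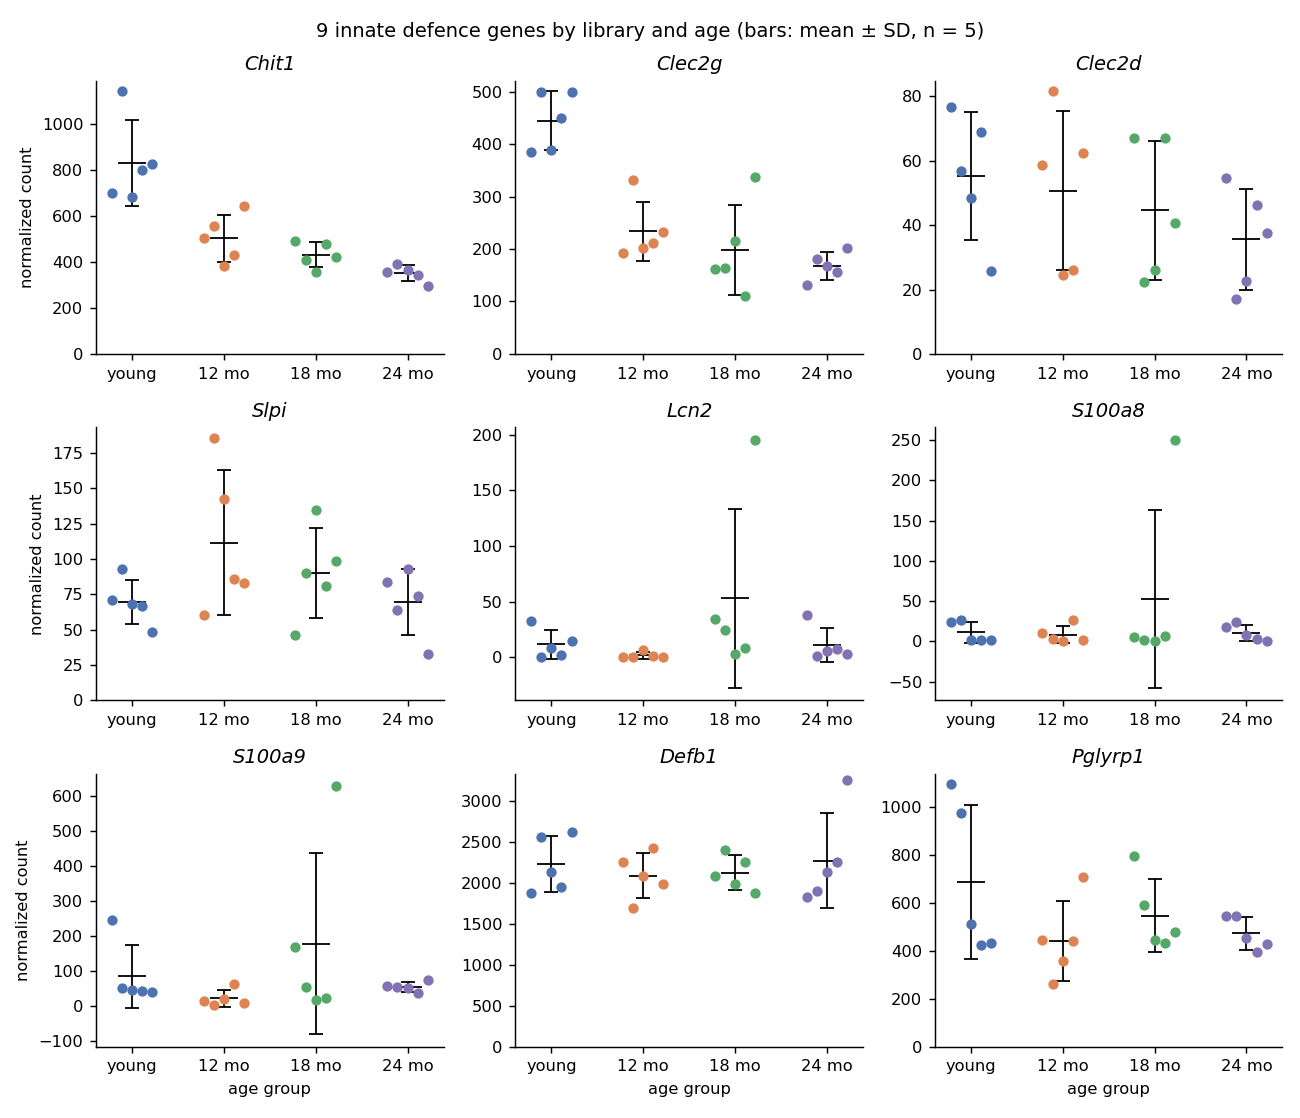
Normalized count (vertical axis) of the 9 genes in every library by age (horizontal axis); points are libraries and bars the mean ± SD of 5. The points of *Chit1* and *Clec2g* at the 3 older ages lie below all young points, and the other 7 genes overlap between ages, with single 18-month points high for *Lcn2* (195), *S100a8* (250.4) and *S100a9* (627).

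The other Clec2 member did not pass the test. *Clec2d* encodes the ligand of the inhibitory receptor Klrb1b. It held 76.7, 57.0, 48.4, 68.9 and 25.6 normalized counts in the young libraries, 58.8, 81.6, 24.6, 26.1 and 62.4 at 12 months, 67.1, 22.3, 26.2, 67.2 and 40.6 at 18 months and 54.6, 17.1, 22.7, 46.1 and 37.6 at 24 months. High and low libraries occurred at every age and the groups overlapped throughout. The log2 differences from young were −0.19 at 12 months, −0.35 at 18 months and −0.65 at 24 months (SE 0.43; limma, adjusted p = 0.945, 0.954 and 0.653). The gene had 19 to 76 reads per library, and its SE was larger than that of *Clec2g*.

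The receptors that bind Clec2 proteins were at or near 0. *Klrb1a*, *Klrb1c* and *Klrb1* had no read in any library, *Klrb1b* reached at most 13.2 normalized counts and *Klrb1f* at most 12.9. Of the 12 genes in the list of Clec2 ligands and their receptors, only *Clec2g* and *Clec2d* passed the filter, and *Clec2e* and *Clec2h* had no read. Lymphocyte and natural killer cell markers were also scarce: 0 of the 9 that the table holds passed the filter, and their sum was between 0 and 15.2 normalized counts in every library.

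Beside *Chit1* in the chitinase list, *Chid1*, a chitinase-like gene, and *Ctbs*, the lysosomal di-N-acetylchitobiase, passed the filter, and neither was called. *Ctbs* averaged 45.2 normalized counts in young epithelium and 22.3, 35.9 and 43.4 at the 3 older ages (12-month log2 −1.20, limma adjusted p = 0.311). *Chid1* averaged 112 and then 119, 88.6 and 92.6 (adjusted p = 0.945, 0.899 and 0.745).

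Among the 7 members that were not picked on these contrasts, 0 were called against young at 12, 18 or 24 months at an adjusted p of at most 0.05 and at least 1.2-fold (limma). Over all genes 0.532%, 0.673% and 0.78% were called in those comparisons. At an unadjusted p under 0.05 the counts of members were 2, 0 and 0, beside 9.56%, 7.18% and 9.97% of all genes, and limma with voom weights on the recovered reads also called 0. Between older ages, 0 of the 9 members were called at 18 against 12 months (0.00886% of all genes called), 24 against 12 months (0.195%) or 24 against 18 months (0.0%), and voom also called 0. At an unadjusted p under 0.05 these comparisons held 2, 3 and 0 members, beside 7.43%, 14.7% and 5.31% of all genes. Without *Chit1* and *Clec2g* they held 2, 1 and 0.

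**Figure D2:**
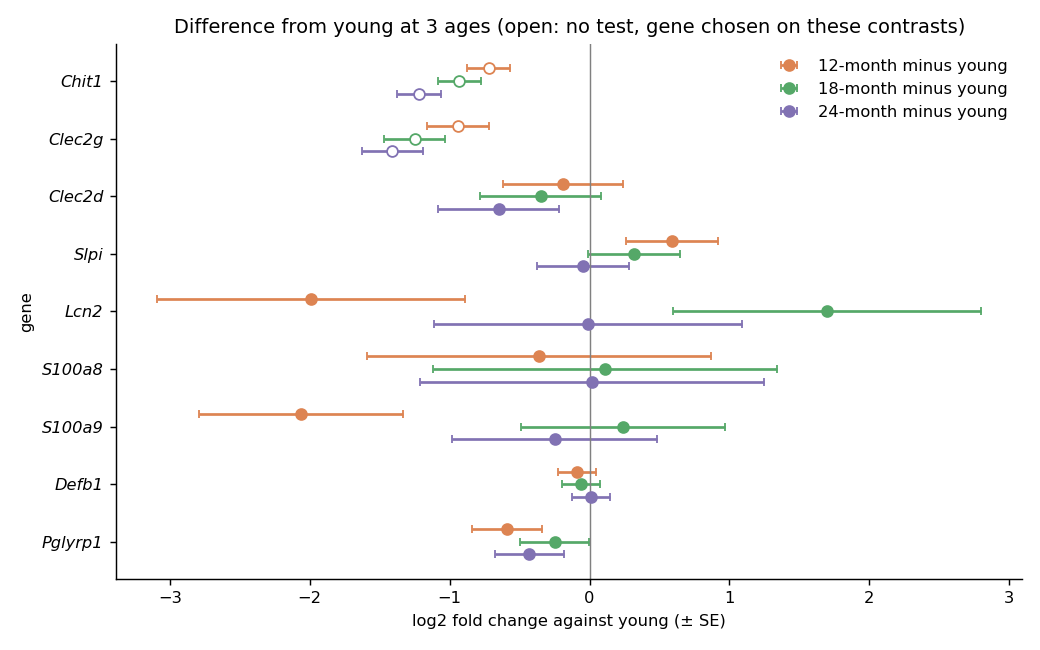
Log2 fold change against young (horizontal axis, points with ± SE) of the 9 genes (vertical axis) at 12, 18 and 24 months. Open points are *Chit1* and *Clec2g*, which carry no test, at −0.72 to −1.41; the filled points of the other 7 genes include no called difference.

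*Defb1*, the beta-defensin that epithelia make at all times, was the steadiest of the members. Its young libraries held 1882, 2562, 2135, 1951 and 2618 normalized counts. Those of 12 months held 2258, 1693, 2082, 2428 and 1993, those of 18 months 2084, 2407, 1987, 2262 and 1874, and those of 24 months 1824, 1899.5, 2139.8, 2252 and 3255. The ages overlapped completely, and the highest value of all was a 24-month library. The log2 differences from young were −0.09, −0.06 and 0.01, each with an SE of 0.138, the smallest SE among the 9 genes (limma, adjusted p = 0.908, 0.985 and 0.992). The order of the means was 24-month (2274), young (2230), 18-month (2123) and 12-month (2091), and no neighbours in it differed beyond their spread.

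*Pglyrp1* varied most within the young group. The young libraries held 1097, 976, 511, 425 and 434 normalized counts, against 444, 260.4, 360.0, 439.9 and 709 at 12 months, 795, 591, 444, 432 and 478 at 18 months and 545, 546, 452, 395 and 427 at 24 months. A pair of young libraries was above all older ones, while the other 3 lay among them. The log2 difference at 12 months was −0.59 (SE 0.249; limma adjusted p = 0.422; exact permutation p = 0.175), with −0.25 at 18 months and −0.43 at 24 months (adjusted p = 0.935 and 0.592).

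*Slpi* encodes the secretory leukocyte protease inhibitor, which blocks neutrophil elastase. It held 71.3, 92.9, 68.5, 66.8 and 48.4 normalized counts in the young libraries, 60.7, 185, 142, 86.2 and 82.8 at 12 months, 46.3, 90.3, 135, 80.6 and 98.6 at 18 months and 83.9, 64.2, 92.7, 74.0 and 32.9 at 24 months. The 12-month group had the highest single values, but its range overlapped that of every other age. The log2 differences from young were 0.59, 0.32 and −0.05 (SE 0.329; limma, adjusted p = 0.612, 0.936 and 0.983).

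*Slpi* belongs to the whey acidic protein (WFDC) family, small secreted proteins of which several inhibit proteases, and here its relatives gave the called differences among innate genes. *Wfdc18*, an extracellular proteinase inhibitor gene, held 308, 336, 410.0, 553 and 407 normalized counts in the young libraries. It held 11.9, 32.9, 3.21, 24.1 and 33.1 at 12 months, 96.3, 46.9, 96.9, 53.8 and 157 at 18 months and 82.9, 49.6, 70.9, 36.5 and 131 at 24 months. Every older library lay below every young one, and the 12-month libraries were also below all 18-month and 24-month ones. *Wfdc18* fell by 4.51, 2.25 and 2.53 on the log2 scale at 12, 18 and 24 months (SE 0.445; limma, adjusted p = 1.02e-06, 0.00671 and 0.00189), and it was called at each age with any 1 of the 20 libraries left out. From 12 to 24 months its difference of 1.98 missed the threshold at an adjusted p of 0.0501 (limma). The authors had already named *Wfdc18* as their most downregulated gene at 24 months. These calls come from the same libraries and are not independent of that result.

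*Wfdc2*, which encodes the secreted protein HE4, went the other way. Its young libraries held 1612, 1236, 969.9, 1281 and 1273 normalized counts and its 18-month libraries 2171, 2216, 1875, 1763 and 2071, with no overlap. The share of all genes that were higher without overlap was not counted, so the lack of overlap is a description only. At 12 months it held 1620.5, 1644, 1412, 1885 and 2189, and at 24 months 1875, 1899.5, 1579.8, 1404 and 1800.5. It rose by 0.68 on the log2 scale at 18 months (SE 0.131; limma, adjusted p = 0.00524, called in 20 of 20 fits with 1 library left out). The differences of 0.46 at 12 months and 0.43 at 24 months did not pass the test (adjusted p = 0.134 and 0.148). *Wfdc5* averaged 29.8 normalized counts in young epithelium and 24.6, 26.5 and 18.8 at the older ages (adjusted p = 0.906, 0.921 and 0.815). *Wfdc12* had 122 normalized counts in 1 young library and no read in the other 19.

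**Figure D3:**
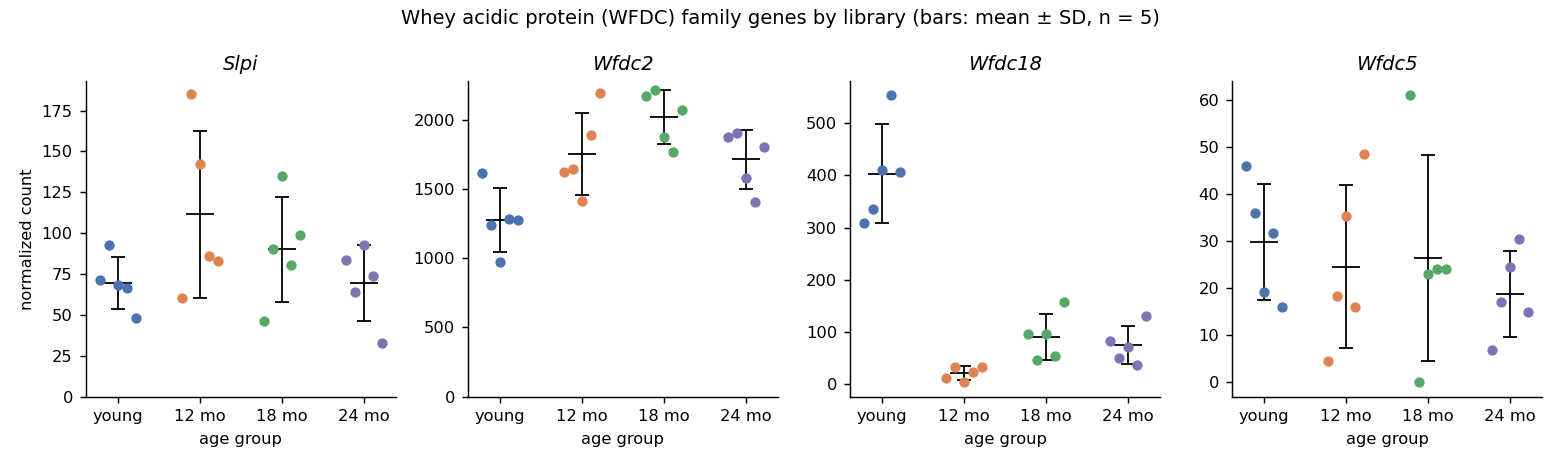
Normalized count (vertical axis) of *Slpi*, *Wfdc2*, *Wfdc18* and *Wfdc5*, the WFDC genes that passed the filter, by library and age (horizontal axis); bars are the mean ± SD of 5. *Wfdc18* is at 308 or above in all young libraries and at 157 or below in all older ones, and *Wfdc2* at 18 months lies above all young libraries.

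The genes that withhold metals from microbes were uneven between animals, and *Lcn2* and *S100a8* had few reads. *S100a8* held 24.1, 27.0, 1.83, 2.12 and 1.9 normalized counts in the young libraries, 10.1, 2.63, 1.07, 26.1 and 1.27 at 12 months, 4.88, 1.17, 0, 7.17 and 250.4 at 18 months and 17.6, 23.6, 8.51, 3.48 and 0 at 24 months. A single library, 18-month replicate 5, was far above the other 19. The log2 differences from young were −0.36, 0.11 and 0.02 (SE 1.23; limma, adjusted p = 0.959, 0.996 and 0.999), and without that library the 18-month difference was −1.15. Where fewer than 3 reads fall on a gene, which is 2.25 to 3.95 normalized counts depending on the library, the count does not tell expression from its absence, and *S100a8* was below 3 reads in 9 libraries.

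*S100a9* encodes the partner of *S100a8*. The young libraries held 247, 51.0, 46.6, 43.4 and 40.8 normalized counts, and those of 12 months 15.6, 2.63, 20.4, 62.1 and 10.2. At 18 months they held 168, 54.0, 17.5, 23.3 and 627, and at 24 months 56.6, 53.7, 52.0, 36.5 and 75.3. All but 1 of the 12-month libraries lay below all young and all 24-month ones, and the highest value was again that of 18-month replicate 5. The 12-month difference from young was −2.06 (SE 0.73; limma p = 0.00882, adjusted p = 0.301; exact permutation p = 0.0397), which did not pass the correction and ran from −2.56 to −1.53 with 1 library left out. The 18-month and 24-month differences were 0.24 and −0.25 (adjusted p = 0.988 and 0.948), and the former was −0.52 without 18-month replicate 5.

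*Lcn2* held 32.9, 0, 8.22, 2.12 and 14.2 normalized counts in the young libraries, 0, 0, 6.43, 1.0 and 0 at 12 months, 34.1, 24.6, 2.38, 8.06 and 195 at 18 months and 38.0, 0.813, 5.68, 6.96 and 2.82 at 24 months. No read was found in 3 of the 12-month libraries, and the same 18-month replicate 5 was highest. The 18-month level was 3.70 above the 12-month level on the log2 scale (SE 1.1; limma p = 0.00234, adjusted p = 0.567; exact permutation p = 0.0159) and did not pass the correction. Against young the differences were −1.99, 1.70 and −0.01 (adjusted p = 0.601, 0.847 and 1.0), and the 18-month difference was 0.92 without replicate 5 of that age. With 1 library left out, the 12-month difference ran from −2.69 to −1.41. The fold of 18 against 12 months rests on a 12-month group with a mean of 1.49 normalized counts, under the level of 3 reads.

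Of the listed neutrophil markers beside these 3 genes, all but *Ltf* had few or no reads, and *Csf3r* and *Cxcr2* were highest in 18-month replicate 5. *Ngp*, *Mpo* and *Elane* had no read in any of the 20 libraries. *Retnlg* had 3.87 normalized counts in 18-month replicate 5 and 5.25 in 1 young library, and *Csf3r* had 12.6 in 18-month replicate 5 and 4.38 in young replicate 1, with both at 0 elsewhere. *Cxcr2* was at 15.5 in 18-month replicate 5, but also at 15.1 in a 24-month library and up to 9.87 in young. Of the other listed markers, *Camp*, *Ly6g* and *Mmp8* had 0 reads in every 18-month library. *Tlr2*, which is not in the neutrophil list, was highest in 18-month replicate 5 (126, against at most 60.7 elsewhere). Without *S100a8* and *S100a9*, the sum of the neutrophil list of 10 genes ran from 114 to 260 in young, 38.1 to 110.2 at 12 months, 76.2 to 145 at 18 months and 36.9 to 167 at 24 months, mostly *Ltf*, a gene that glands also express. The part of neutrophils in the 3 genes was not tested.

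**Figure D4:**
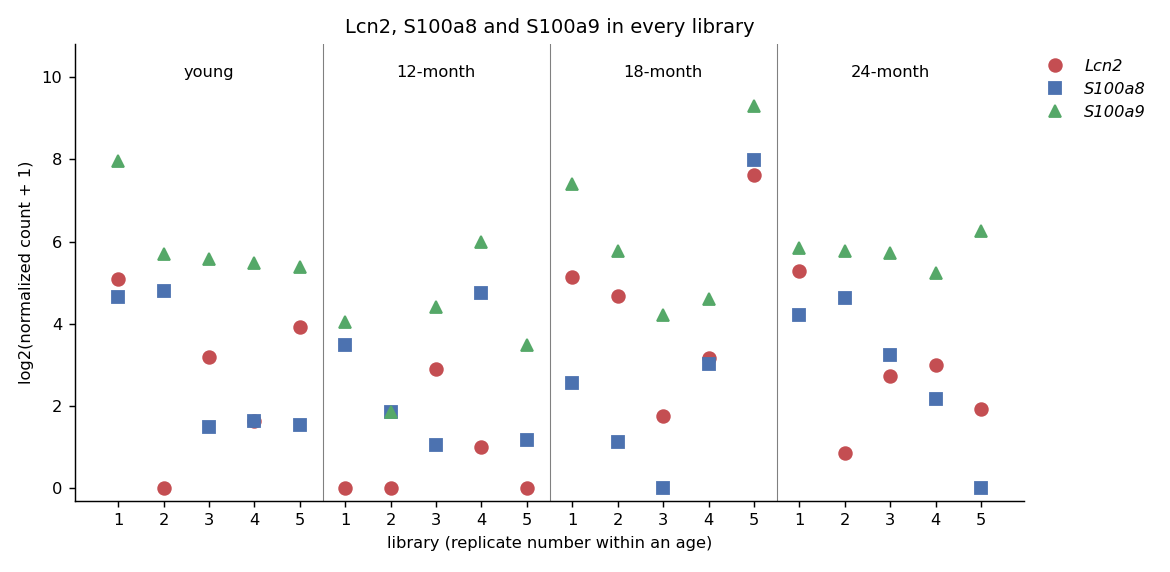
Level of *Lcn2*, *S100a8* and *S100a9* as log2 of the normalized count plus 1 (vertical axis) in each of the 20 libraries, numbered within their age (horizontal axis). All 3 genes are highest in 18-month replicate 5, and *Lcn2* is at 0 in 3 of the 12-month libraries.

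Relations between members were tested on deviations from the age means, which the choice of genes did not use. Over the 36 pairs of members, 0 had an adjusted p of 0.05 or less by Pearson or by Spearman correlation in permutation tests within ages. By Pearson correlation the pairs with the smallest p were *Lcn2* with *S100a9* (r = 0.636, rho = 0.491, permutation p = 0.00693 and 0.0438, adjusted p = 0.172 and 0.421, 20 libraries) and *S100a8* with *S100a9* (r = 0.652, rho = 0.504, permutation p = 0.00956 and 0.046, adjusted p = 0.172 and 0.421). Without the 2 libraries farthest from the median of the first gene, r was 0.522 for the former and 0.288 for the latter, so the relation of *S100a8* with *S100a9* rested on those libraries. By Spearman correlation the smallest p was that of *S100a9* with *Pglyrp1* (rho = 0.571, r = 0.422, permutation p = 0.0148 and 0.089, adjusted p = 0.421 and 0.771; r = 0.671 without 2 libraries). *Slpi* and *Defb1* had a negative correlation that did not pass either (r = −0.561, rho = −0.481, permutation p = 0.0216 and 0.0468, adjusted p = 0.259 and 0.421; r = −0.433 without 2 libraries).

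The wider list of innate defence held 100 genes, of which 37 besides *Chit1* and *Clec2g* passed the filter. In this list 1 gene was called at 12 months (*Wfdc18*, lower), 2 at 18 months (*Wfdc2*, higher, and *Wfdc18*, lower) and 1 at 24 months (*Wfdc18*, lower), beside 0.532%, 0.673% and 0.78% of all genes, and voom called the same numbers. At the 3 ages the 37 had median log2 fold changes of −0.25, −0.05 and −0.12, beside −0.01, 0.00 and 0.01 over all genes tested. At the 3 ages 25, 21 and 25 of the 37 were lower than in young, beside 5838, 5669 and 5561 of all 11288 genes. An unadjusted p under 0.05 was found for 9, 2 and 3 of the 37, beside 9.56%, 7.18% and 9.97% of all genes.

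Below the threshold at 12 months stood *Ltf*, which encodes the iron-binding lactoferrin of tears, with 61.7 normalized counts against 158 in young (log2 −1.37, limma adjusted p = 0.0862). *Ang*, which encodes the antimicrobial ribonuclease angiogenin, had 5.65 against 20.6 (log2 −2.95, adjusted p = 0.0644), and it was 24.9 at 18 months. Of 11 tested Toll-like receptor and adaptor genes, 0 were called at any age. *Tlr4*, the receptor of lipopolysaccharide, averaged 358 normalized counts in young epithelium and 302, 326 and 322 at the older ages (limma, adjusted p = 0.65, 0.946 and 0.789). *Myd88*, the shared adaptor, averaged 172 and then 143, 199 and 202 (adjusted p = 0.76, 0.947 and 0.809).

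The genes whose pattern was most like that of *Chit1*, by Pearson's r of log2 values over the 20 libraries, were *Krt4* (0.91), *Filip1l* (0.891), *Emb* (0.855), *Col1a2* (0.844) and *Ifit1bl1* (0.83). *Krt4* encodes a keratin of moist stratified epithelia, conjunctiva among them, and averaged 4518 ± 914 normalized counts in young and 2171 ± 580, 2110 ± 400.0 and 1545 ± 237 at the older ages. For *Clec2g* they were *Col1a1* (0.847), *Gm5938* (0.826), *Scgb2b2* (0.82), *Pip* (0.806) and *Ifit1bl1* (0.787). *Gm5938*, *Scgb2b2* and *Pip* averaged under 10 normalized counts at each older age and passed the filter only through the young libraries. *Clec2g* was picked as lower than young at those ages, so nothing is read from the high r of these genes with it. These values describe libraries that share an age, and most of the likeness is between young and older groups. On deviations from the age means, r with *Chit1* was 0.794 for *Filip1l* and 0.574 for *Krt4* but 0.176 to 0.384 for the other 3, and r with *Clec2g* was 0.121 to 0.432. *Chit1* and *Clec2g* had an r of 0.78 with each other over the 20 libraries but 0.0589 on deviations from the age means (permutation adjusted p = 0.988), so the former reflects the contrast on which both were picked.

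**Figure D5:**
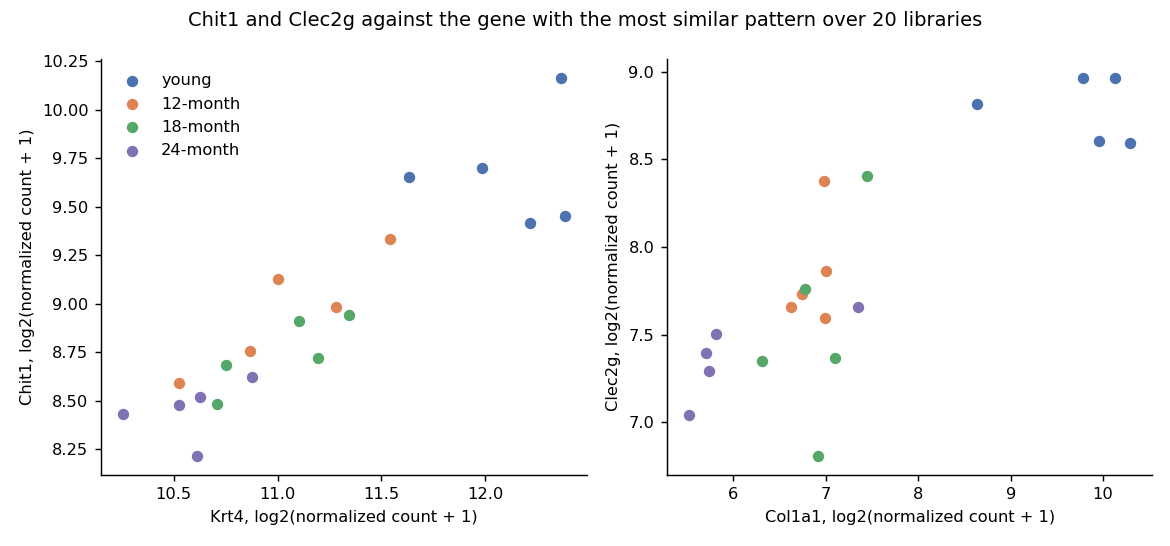
*Chit1* against *Krt4* (left) and *Clec2g* against *Col1a1* (right), each as log2 of the normalized count plus 1, with 1 point for each of the 20 libraries, coloured by age. The young libraries lie apart at the upper right in both panels, with r = 0.91 and 0.847 over all libraries.

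Some markers of tissue around the corneal epithelium were lower than in young at the older ages, and others were not. All 10 corneal epithelial markers, such as *Krt12*, passed the filter and 0 were called at any age. Of 6 tested conjunctiva and goblet cell markers, 2, 2 and 1 were called lower at the 3 ages and 0 higher, beside 0.532%, 0.673% and 0.78% of all genes called in either direction. *Krt4* fell at all 3 older ages (log2 −1.07, −1.09 and −1.54, limma adjusted p = 7.07e-04, 6.23e-04 and 2.17e-06). *Krt19* fell at 12 and 18 months (limma adjusted p = 0.0391 and 0.0379), though with voom its 12-month adjusted p was 0.0526. *Krt13*, *Krt8*, *Muc4* and *Agr2* were not called, and at 24 months *Krt8* and *Agr2* had log2 differences of 0.90 and 0.09. Of 7 tested gland genes, such as *Obp1a*, limma called 5, 6 and 6 lower at the 3 ages and voom called 0 at each (*Obp1a* adjusted p = 0.192, 0.356 and 0.292 with voom). *Lcn11*, *Mup4*, *Obp1b*, *Pip* and *Scgb2b2* averaged under 10 normalized counts at each older age. They passed the filter only through the young libraries, so that they were lower later follows from the filter and nothing is read from these counts. The gland list summed to between 703 and 10680 normalized counts in young libraries and between 36.9 and 243 in older ones. It holds the same genes, and also *Ltf* and *Lpo*, so nothing is read from the sums either. Of 8 tested keratocyte genes, 2, 3 and 4 were called lower, *Col1a1* and *Col1a2* at each age, and *Aldh1a1* was called higher at 18 and 24 months (log2 0.68 and 0.67, limma adjusted p = 0.0209 and 0.0232). Of 8 tested macrophage and dendritic cell markers, 0 were called at any of the 3 ages (limma). Of these, 7, 6 and 6 were lower than in young (median log2 −1.03, −0.54 and −0.92), beside 5838, 5669 and 5561 of all 11288 genes. The part of these tissues and cells in the lower *Chit1* and *Clec2g*, or in *Wfdc18*, was not tested.

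For *S100a8*, the genes most like it within ages were *Washc1* (r = 0.829), *Fkbpl* (0.763), *Tmem259* (0.755), *Gtf2ird2* (0.749) and *Abhd11* (0.739). Without 18-month replicate 5 these were 0.803, 0.645, 0.651, 0.599 and 0.602. The genes were picked for the highest r among the tested genes outside the members, in these same libraries. Neither set of values is therefore a test. The first describes 20 libraries with few reads on *S100a8*, and the second the same libraries without that replicate.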

How the data were processed

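RNA of corneal epithelium from 20 female C57BL/6J mice was measured by 3′ RNA sequencing. Per the methods, the authors used cutadapt for trimming, STAR for alignment (build GRCm38), HTSeq for gene counts and the relative log expression of DESeq2 for normalization. The deposited table holds log2 of the normalized count plus 1. It also holds fold changes and p-values of the authors' own comparisons, which were not used. In every library 100% of the values were whole reads times 1 step, within 0.001 of a read. Between libraries of 1 age, chi-square per degree of freedom was 11.0 to 99.9 over 40 pairs, so none was a repeat.

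Ages were compared with limma 3.58.1 in R 4.3.3 (trend on mean expression, 1 fit of all 4 ages, Benjamini-Hochberg over 11288 genes averaging 10 or more normalized counts, called at an adjusted p of at most 0.05 and 1.2-fold). Single values used exact permutation over the 252 splits of 5 against 5, and relations 100000 permutations within ages. Scripts ran in Python 3.11.15 (numpy 2.4.6, pandas 2.3.3, scipy 1.17.1, matplotlib 3.10.9), and the fits were tested on simulated data. Positions and sequences are from RefSeq, overlaps and shared runs from GENCODE vM21. The members, gene lists and tests were chosen with earlier results of these data known. Named genes were the members, called genes of the innate list and those needed to account for a list, the 5 genes most like *Chit1*, *Clec2g* and *S100a8*, and markers beside a member; *Wfdc12* and the Toll-like receptor genes were named after their values were seen. Alternatives were quantile normalization, other filters, fold thresholds and pseudocounts, voom on recovered reads, only the groups compared, the replicate block, and each library left out.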

Additional observations from a re-analysis of the deposited data

Results flagged for a closer look

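Of 36 sets of 5 libraries (9 genes at 4 ages), 7 had a value farther from the rest than the 95% critical value of 0.71 for the gap over the range, where chance would give about 1 in 20. In 18-month replicate 5 this held for 3 genes, with 195.3 normalized counts of *Lcn2* (the others at 34.1 or less), 250.5 of *S100a8* (7.17 or less) and 626.6 of *S100a9* (168 or less). *S100a9* was also set apart in young replicate 1, at 246.6 against 51.0 or less. *Lcn2* was set apart in 24-month replicate 1, at 38.03 against 6.96 or less, and in 12-month replicate 3, at 6.429 against 1.0 or less, a difference of a few reads. *Clec2g* stood apart in 12-month replicate 2, at 331.5 against 232 or less, a value still below the lowest young library. These flags were read from the normalized counts, where rare genes are skewed.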

How the results depend on the processing

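With *Chit1* and *Clec2g* against young left aside as untested, no member was called in any comparison under any alternative, including each library left out, and none of the relations between members passed. For the innate list, the count at 12 months against young was 1, and 2 with no filter on low expression, which added *Lpo*. It was 1 to 2 with a library left out: 2 without 12-month replicate 1 (adding *Ang*), 12-month replicate 4 or 24-month replicate 3 (each adding *Ltf*), or young replicate 1 (adding *Wfdc2*). With no filter *Lpo* was also added at 18 months (3 in place of 2) and at 24 months (2 in place of 1). Between 18 and 12 months it was 0, and 0 to 1 with a library left out, with *Ang* called without 12-month replicate 1. Between 24 and 12 months it was 0, but 1 with a mean of at least 50 (*Wfdc18*) and 0 to 1 with a library left out, with *Ang* called without 12-month replicate 1 and *Wfdc18* without 18-month replicate 2 or young replicate 1.

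Directions turned only for small differences that no test called. *Lcn2* at 24 months against young was −0.01, but 0.45 with a pseudocount of 0.1, 0.14 with quantile normalization and 0.27 with voom. *S100a8* was −0.36 at 12 months but 0.15 with quantile normalization. It was 0.11 at 18 months but −0.46 with a pseudocount of 0.1 and −0.22 with voom, and 0.02 at 24 months but −0.42 and −0.11. With a library left out, log2 differences from young ran from −0.43 to 0.03 for *Clec2d* at 12 months, from −0.17 to 0.19 for *Slpi*, −0.70 to 0.57 for *Lcn2* and −0.13 to 0.08 for *Defb1* at 24 months, from −0.93 to 0.13, −1.15 to 0.84 and −0.42 to 0.74 for *S100a8* at the 3 ages, and from −0.52 to 0.75 and −0.41 to 0.23 for *S100a9* at 18 and 24 months. *Clec2g* at 24 against 18 months ran from −0.34 to 0.06. The causes were not tested.

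Replicate numbers did not pair the samples: over 30 pairs of same-numbered libraries the median correlation of deviations was 0.0077, and 3 were above 0.1. With the replicate block, 0 members were called in each comparison and the innate list kept counts of 1, 2 and 1 against young. Quantile normalization moved the group medians by at most 0.0224. Depth limits *Lcn2* and *S100a8*, with under 3 reads in many libraries.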
